A study of Mus musculus with 96 samples.

Results

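Suz12 was mapped by chromatin immunoprecipitation and sequencing (ChIP-seq) in the NeuN- nuclei of the mouse hippocampus, and the regions described here are its consensus peaks that do not lie at a promoter. They were chosen by the deposited annotation alone: of the 312 Suz12 peaks of NeuN- nuclei, 256 had an annotation other than promoter and 56 were promoter peaks. Of the 256, 140 were annotated as distal intergenic, 73 as intron, 32 as exon, 10 as 3′ UTR and 1 as 5′ UTR. Of these, 4 lay side by side on chromosome 2, between positions 98662501 and 98667360, and are given apart, which leaves 252. The whole series held 22815 peaks in 6 tables, one for each of 3 antibodies (Suz12, H3K27me3 and H3K4me3) in NeuN+ and NeuN- nuclei.

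The mice were 6-month-old C57BL/6N males, either wild type (WT), lacking Mutyh (Mutyh-/-) or Ogg1 (Ogg1-/-), or lacking both genes (Mutyh-/-xOgg1-/-, the double knockout, DKO), with 3 replicates of each of the 4 genotypes. Both knockouts were present in every cell of the animal, and each replicate was a pool of hippocampi from several animals of a genotype, so that the spread between replicates is a spread between pools. Ogg1 and Mutyh encode DNA glycosylases, which begin the repair of DNA damaged by oxidised guanine. Nuclei were sorted on NeuN, a protein of neuronal nuclei, and the NeuN- fraction holds glia and the other non-neuronal cells together.

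Suz12 is a core subunit of Polycomb repressive complex 2 (PRC2), the enzyme complex that methylates lysine 27 of histone H3. H3K27me3 marks silenced genes, and in most tissues PRC2 is found at CpG-rich promoters of developmental regulators. H3K4me3 marks the promoters of active or poised genes. Satellite DNA is made of tandem copies of a short unit at and beside centromeres, most of which are missing from the assembled genome, so that reads from many copies can align to the few that are present.

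Peak values are reads in a counting window, usually 401 bp wide, divided by a factor for each library, and are called normalised values here. The 12 libraries held between 11887 and 66148 reads in all peaks. Of these reads, the chromosome 2 locus took between 59.3% and 81.4%, the 252 other non-promoter peaks between 16.5% and 25.1%, and the promoter peaks between 1.68% and 15.7%. The median non-promoter peak had 2 to 11 reads in a library, and 12.7% to 36.1% of these peaks had no read. WT replicate 1 and Mutyh-/- replicate 3 stood apart with promoter shares of 15.7% and 13.9%, against at most 7.20% in the other 10 libraries. As a check of the fraction, H3K4me3 promoter peaks of NeuN- nuclei were found at 2 of 20 marker genes of glia and other non-neuronal cells (Oaf and Olig1), against 3 in NeuN+ nuclei. Most glial markers, Gfap, Aqp4 and Mbp among them, thus had no such peak in the NeuN- table. Of the neuronal markers, Rbfox3 (which encodes NeuN), Snap25, Syt1, Camk2a and Gad1 had one in NeuN+ nuclei and none in NeuN- nuclei.

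The sequences under the strongest non-promoter peaks were read from the GRCm38 genome. The first set shows 1 repeat unit shared by peaks on different chromosomes, aligned to a 234-base window at the end of chromosome 9. Capitals mark the bases that differ from that window.

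chr9:3000219-3000452, plus strand, peak annotated to Mir101c: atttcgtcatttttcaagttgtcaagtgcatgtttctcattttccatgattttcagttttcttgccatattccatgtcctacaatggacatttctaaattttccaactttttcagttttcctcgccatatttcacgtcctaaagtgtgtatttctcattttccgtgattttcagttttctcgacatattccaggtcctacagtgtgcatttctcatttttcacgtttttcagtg

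chr2:98667097-98667330, minus strand, strongest peak of the table: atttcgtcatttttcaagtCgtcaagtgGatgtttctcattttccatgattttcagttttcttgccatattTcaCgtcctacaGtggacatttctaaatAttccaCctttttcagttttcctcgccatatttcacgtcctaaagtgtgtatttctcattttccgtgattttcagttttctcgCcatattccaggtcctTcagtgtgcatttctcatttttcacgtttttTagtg

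chr9:35305256-35305423, minus strand, peak annotated to 4933422A05Rik: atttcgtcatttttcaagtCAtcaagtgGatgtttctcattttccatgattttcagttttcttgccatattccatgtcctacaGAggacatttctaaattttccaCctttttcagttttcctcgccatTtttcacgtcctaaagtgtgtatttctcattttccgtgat

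chr12:3109872-3110046, minus strand, peak annotated to Rab10os: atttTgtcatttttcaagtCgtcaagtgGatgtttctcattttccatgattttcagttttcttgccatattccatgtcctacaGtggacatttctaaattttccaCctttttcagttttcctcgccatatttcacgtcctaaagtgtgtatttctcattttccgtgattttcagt

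Over the aligned bases, the windows at the peaks on chromosome 2, of 4933422A05Rik and of Rab10os were 95.7%, 95.8% and 97.1% identical to the first window, with 10, 7 and 5 differing bases. Shifted against itself by 234 bases, the peak at chr9:3000219-3000619 matched at 97% of positions, where the median over all shifts from 20 to 260 bases was 30.2%. The major satellite of mouse pericentromeric heterochromatin is known to have a unit of this length. By alignment of all 312 peaks to each other at an identity of at least 80% over at least 150 bases, 37 peaks on chromosomes 2, 9, 11, 12, 13 and 14 formed a single family, called satellite-like below. It held 34 of the 252 non-promoter peaks, 2 of the 4 peaks of the chromosome 2 locus and 1 promoter peak, and the identities within it had a median of 92.4%. The 34 lay almost all at the start of chromosome 9, with 28 annotated to the microRNA gene Mir101c between positions 3000219 and 3035857.

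A second, shorter repeat was shared by the chromosome 2 locus and a peak in an intron of Chl1, a neural cell adhesion molecule, on chromosome 6. Capitals mark the bases in which the second window differs from the first.

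chr2:98664929-98665168, plus strand: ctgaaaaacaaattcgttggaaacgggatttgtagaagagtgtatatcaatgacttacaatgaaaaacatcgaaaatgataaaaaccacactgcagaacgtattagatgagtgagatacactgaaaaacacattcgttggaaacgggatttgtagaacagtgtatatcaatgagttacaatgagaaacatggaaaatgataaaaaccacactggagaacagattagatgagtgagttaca

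chr6:103649071-103649292, minus strand, peak annotated to Chl1: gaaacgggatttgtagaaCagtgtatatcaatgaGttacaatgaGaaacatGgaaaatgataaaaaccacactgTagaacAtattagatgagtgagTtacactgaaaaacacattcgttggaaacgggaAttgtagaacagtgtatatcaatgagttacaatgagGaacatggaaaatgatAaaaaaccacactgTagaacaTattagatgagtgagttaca

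The windows were 94.6% identical, and the chromosome 2 peak matched itself best at a shift of 120 bases (69.8% of positions). The minor satellite of mouse centromeres is known to have a unit of this length.

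The third set shows peaks outside these repeats: the strongest on chromosome Y, the strongest of the CpG-dense ones, and a weak peak near a developmental regulator. The peak on chromosome Y is AT-rich and has no CG pair in the 150 bases shown. The peaks annotated to Axin2, an inhibitor of Wnt signalling, and Foxa1, a transcription factor of endoderm, are CpG-rich, and there capitals mark each CG pair.

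chrY:34438836-34438985, plus strand, peak annotated to Gm20736: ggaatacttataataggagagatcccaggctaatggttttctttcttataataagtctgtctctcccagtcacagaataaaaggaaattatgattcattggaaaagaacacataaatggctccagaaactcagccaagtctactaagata

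chr11:109011773-109012012, plus strand, peak annotated to Axin2: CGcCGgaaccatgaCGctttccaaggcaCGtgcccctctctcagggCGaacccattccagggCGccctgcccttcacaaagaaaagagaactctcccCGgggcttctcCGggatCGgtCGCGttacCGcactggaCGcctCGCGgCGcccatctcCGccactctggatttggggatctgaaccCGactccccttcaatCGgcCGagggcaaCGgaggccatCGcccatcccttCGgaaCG

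chr12:57539042-57539281, plus strand, peak annotated to Foxa1: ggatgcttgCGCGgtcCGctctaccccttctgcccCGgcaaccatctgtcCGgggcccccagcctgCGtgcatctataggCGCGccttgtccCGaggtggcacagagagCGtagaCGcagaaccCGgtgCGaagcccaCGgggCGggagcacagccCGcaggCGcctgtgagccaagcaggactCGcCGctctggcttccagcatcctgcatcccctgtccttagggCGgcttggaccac

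The Axin2 window holds 24 CG pairs and the Foxa1 window 20. Both windows were placed where their peak has the most CG pairs, whereas the window on chromosome Y is the start of its peak. A peak with at least 20 CG pairs was the exception among the non-promoter peaks, where it was found in 12 of 252 (4.76%), against 23 of 56 promoter peaks (41.1%).

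The chromosome 2 locus held the strongest peak of the table, chr2:98666960-98667360. Its normalised value was 12925, 22138 and 14823 in the WT libraries, 35625, 11989 and 9843 in Mutyh-/-, 35290, 40167 and 45229 in Ogg1-/-, and 20692, 40966 and 28495 in DKO. It lay far above every other peak in each library. By GENCODE it overlaps Gm10800, a predicted protein-coding gene on the minus strand, and 97% of its bases are masked as repeat. The deposited annotation assigns the 4 peaks to Lrrc4c, a synaptic adhesion molecule, whose start lies 1198871 bases from the strongest of them.

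The 3 other peaks of the locus were weaker. The peak at chr2:98662501-98662901, over Gm10801, had values of 111, 1164 and 951 in WT, 1766, 507 and 424 in Mutyh-/-, 1681, 2806 and 3034 in Ogg1-/-, and 467, 2993 and 1562 in DKO. The intergenic peak at chr2:98664929-98665329 had 338, 631 and 447 in WT, 940, 535 and 178 in Mutyh-/-, 1174, 1449 and 1548 in Ogg1-/-, and 261, 1660 and 1090 in DKO. At chr2:98663718-98664118, also over Gm10801, the values ranged from 19.3 to 94.4. At all 4 peaks the 3 Ogg1-/- libraries were above the 3 WT libraries, whereas the Mutyh-/- and DKO libraries overlapped with WT. Over all 312 peaks, the 3 Ogg1-/- libraries were all above WT at 14.4% and all below at 2.88%.

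The non-promoter peaks outside the locus were led by 8 peaks, of which 4 belong to the satellite-like family and 2 lie on chromosome Y. Strongest was the peak at chr9:35305256-35305656, annotated to an intron of 4933422A05Rik and by GENCODE within the long noncoding RNA gene Gm33838. Its normalised values were 794, 1369 and 826 in WT, 2042, 649 and 450 in Mutyh-/-, 2067, 2433 and 2544 in Ogg1-/-, and 1250, 2286 and 1597 in DKO. The Ogg1-/- libraries did not overlap with WT, and Mutyh-/- replicate 1 was close below them.

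The intergenic peak at chr12:3109770-3110170, whose closest gene by the deposited annotation is the antisense gene Rab10os, had 435, 675 and 514 in WT, 1060, 393 and 367 in Mutyh-/-, 1139, 1283 and 1460 in Ogg1-/-, and 604, 1213 and 977 in DKO. The peak at chr14:19417126-19417526, annotated to an exon of Gm5458 and over the predicted gene Gm21738, ranged from 126 to 750 and was likewise higher in the 3 Ogg1-/- than in the 3 WT libraries. The last of these family members, chr9:3025355-3025755 near Mir101c, ranged from 132 to 501, with all 3 Ogg1-/- libraries (376, 450 and 414) above WT (179, 249 and 136).

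The remaining 4 of the 8 did not belong to the family. An intergenic peak at chrX:143482859-143483259, whose closest gene is Pak3, a kinase of the actin cytoskeleton in neurons, had 137, 506 and 286 in WT, 695, 216 and 102 in Mutyh-/-, 665, 965 and 987 in Ogg1-/-, and 285, 967 and 521 in DKO. The peak at chr15:75086592-75086992, closest to Ly6c2, which encodes a surface protein of monocytes, ranged from 107 to 480. The chrY:34438836-34439236 peak showed the widest spread, with 222, 16.6 and 15.1 in WT, 518, 14.3 and 5.75 in Mutyh-/-, 24.8, 19.7 and 1.43 in Ogg1-/-, and 0, 2885 and 0 in DKO. These values did not follow genotype, since 1 library of WT, 1 of Mutyh-/- and 1 of DKO carried nearly all of the signal. A second peak on the same chromosome, chrY:86707304-86707704, was high in the same 3 libraries, at 99.7, 325 and 2374. Both hold multicopy sequence, with a median of 184 and 176 copies in the genome for words of 31 bases.

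**Figure D1:**
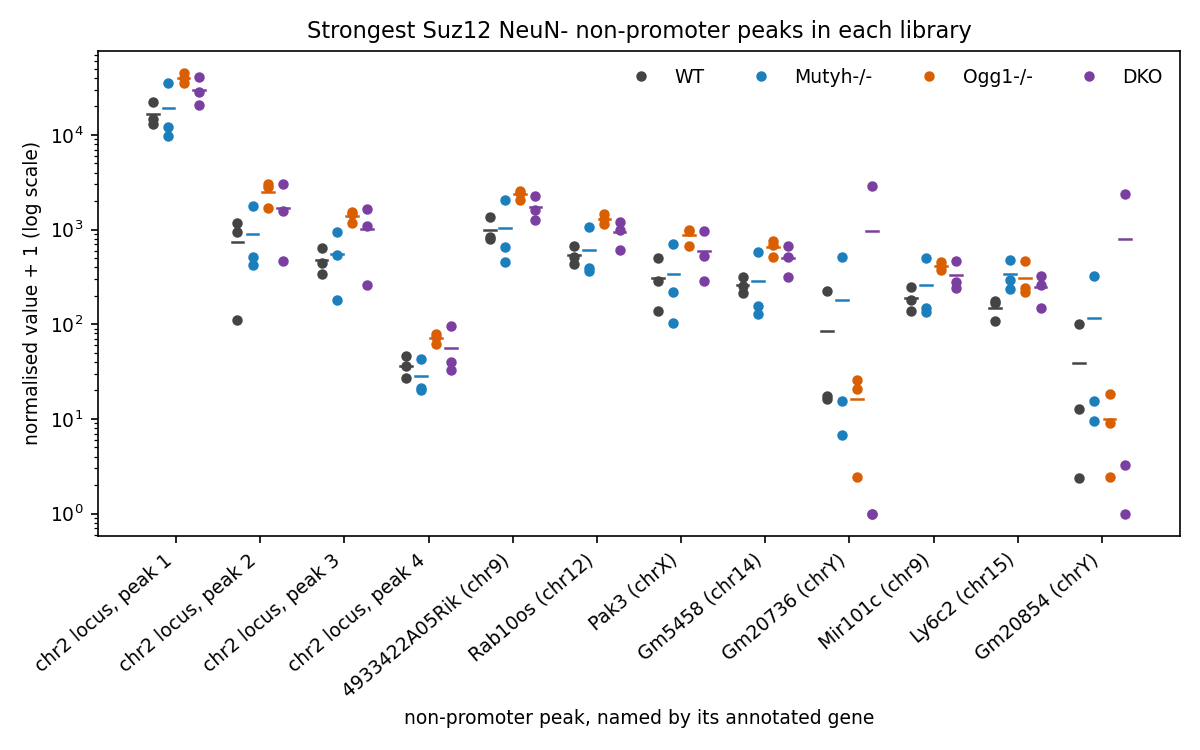
Normalised Suz12 values (log axis, value + 1) of the chromosome 2 locus and the strongest other non-promoter peaks in NeuN- nuclei, with 1 point for each library, a line at the mean and 3 libraries for each of WT, Mutyh-/-, Ogg1-/- and DKO. The Ogg1-/- points of the chromosome 2 peak lie between 35290 and 45229, above the WT points, and on chromosome Y a single DKO library reaches 2885 while the other 2 are at 0.

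The reads of the 252 peaks were therefore concentrated in few of them. In a library, the strongest peak took between 10.6% and 25.4% of these reads, the 8 strongest between 35.0% and 76.0%, and the 50 strongest between 80.9% and 91.9%. Sorted by sequence and position, the 34 satellite-like peaks took 32.7% to 62.8% of the reads, 4 peaks in the gene Ung 1.16% to 11.7%, 136 peaks in positional clusters 5.59% to 13.5%, and the 78 scattered peaks 26% to 53.4%. These 4 classes were made after the values had been seen. The 53.4% of the scattered peaks was DKO replicate 2, where the strong peaks of chromosome Y were highest. The next highest was 44.2% in Mutyh-/- replicate 3. When these shares were compared between each knockout and WT, the smallest exact two-sided permutation p was 0.2, where 3 against 3 libraries cannot go below 0.1, and the adjusted p over the 12 comparisons was 0.84 or more.

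**Figure D2:**
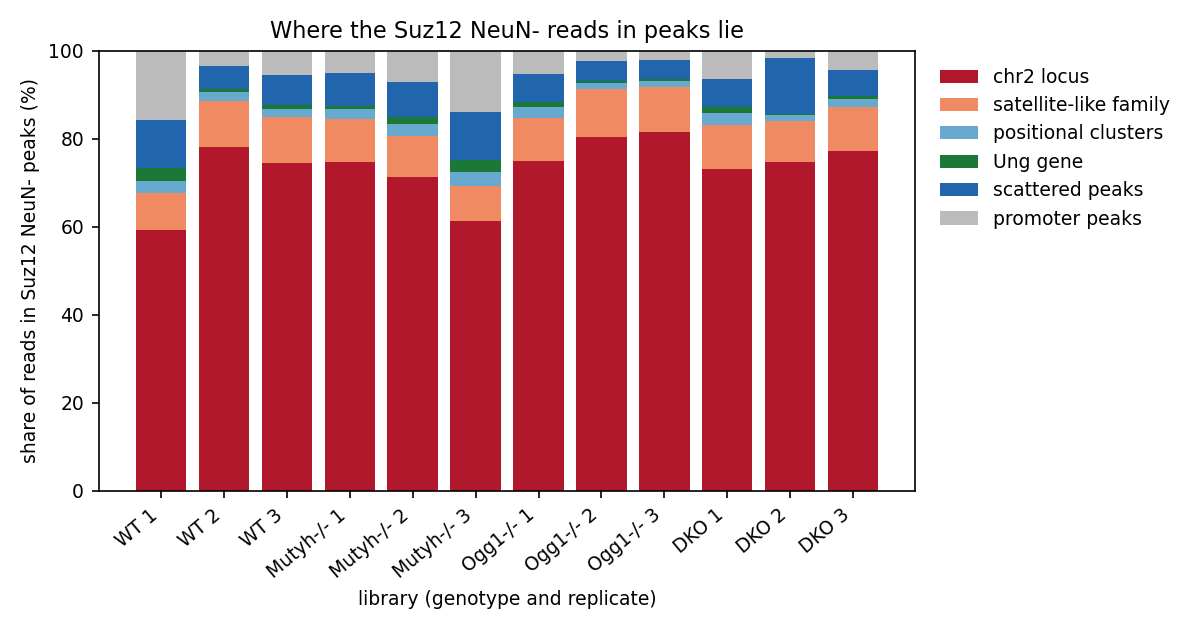
Share of the Suz12 reads in peaks (percent, stacked bars) of each of the 12 NeuN- libraries that fell at the chromosome 2 locus, in the 4 classes of other non-promoter peaks and in promoter peaks. The locus takes between 59.3% and 81.4% of the reads, and the promoter part is largest in WT replicate 1 (15.7%) and Mutyh-/- replicate 3 (13.9%).

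Of the reads outside the locus, those in non-promoter peaks made up 74.8% ± 11.8 (SD, n = 3) in WT, 73.0% ± 8.2 in Mutyh-/-, 85.2% ± 5.7 in Ogg1-/- and 83.2% ± 9.1 in DKO. The differences from WT were within the spread between libraries, with exact two-sided permutation p of 0.8, 0.2 and 0.5. The locus itself took 70.6% ± 10.0 (SD, n = 3) in WT, 69.1% ± 7.0 in Mutyh-/-, 78.9% ± 3.5 in Ogg1-/- and 75.0% ± 2.2 in DKO, with exact p of 0.8, 0.2 and 0.8. Within a library, the median log2(value + 1) of the 252 peaks minus that of the 56 promoter peaks was -0.13 ± 0.59 (SD, n = 12 libraries), above 0 in 6 libraries and below 0 in 4 (exact sign-flip permutation p = 0.445, genotype left aside). It was -1.02, 0.22 and -0.93 in WT, 0.17, 0 and -0.96 in Mutyh-/-, 0.41, 0.41 and 0.71 in Ogg1-/-, and 0, 0.01 and -0.60 in DKO. The Ogg1-/- libraries lay above the WT libraries, which was not tested.

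Ung held 4 non-promoter peaks with mean values between 33.2 and 162, against a median of 6.03 for the 252 peaks, in sequence of which at least 94.3% is unique in the genome. It encodes uracil-DNA glycosylase, which removes uracil from DNA and is, like Ogg1 and Mutyh, an enzyme of base excision repair. The 4 peaks lie between 114135713 and 114138504 on chromosome 5, 1 annotated to an exon and 3 to the 3′ UTR of the gene, and 3 promoter peaks lie beside them. The strongest, chr5:114137033-114137433, had values of 334, 83.7 and 103 in WT, 181, 110 and 204 in Mutyh-/-, 258, 85.1 and 145 in Ogg1-/-, and 191, 87.0 and 165 in DKO. The genotypes overlapped throughout, with log2 fold changes of 0.16, 0.05 and -0.02 for the 3 knockouts (SE 0.73). None of the 4 Ung peaks overlapped a peak of any of the 5 other tables.

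Positional clusters of at least 5 peaks, each within 500 kb of the next, held 166 of the 252 peaks, the satellite-like peaks of chromosomes 9 and 11 included. The largest spanned chr4:145680205-147579810 with 51 peaks, annotated to KRAB zinc finger genes and their neighbours (Zfp600, Zfp980, Zfp981, Zfp982, Zfp985 and Zfp992 among them), which as a family bind and silence transposons. Their mean values lay between 0.644 and 12.0. The next by number was the start of chromosome 9 with 29 peaks. On chromosome 1, 18 non-promoter peaks lay between 88219709 and 88309274, at Mroh2a, Hjurp (which loads the centromeric histone) and Trpm8 (the cold-sensing channel). Their sequence is unique in the genome over a median of 100% of its words, and 12 promoter peaks lay within 500 kb of them.

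Other clusters lay at the olfactory receptor gene Or1f19 (14 peaks on chromosome 16), at Speer4d, Speer4e and neighbouring predicted genes (14 on chromosome 5), at Smok and Tcp10c genes, which are expressed in the testis (13 on chromosome 17), and at the vomeronasal receptor genes Vmn1r2 and Vmn1r3 (7 on chromosome 4). The medians of the clusters other than that of chromosome 9 lay between 4.55 and 6.79, a few reads in each library. Since peaks of a cluster lie side by side, the 256 non-promoter peaks, the chromosome 2 locus included, come to 80 separate groups by position. Of the 56 promoter peaks, 27 (48.2%) also lay within 500 kb of a cluster.

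By composition the non-promoter peaks differed from the promoter peaks of the same table. Their median GC content was 43.6%, against 50.6% in promoter peaks. At least 50% of the bases were masked as repeat in 87 of 252 peaks (34.5%), against 9 of 56 (16.1%). The median word of 31 bases occurred more than once in the genome in 83 non-promoter peaks (32.9%) and in 5 promoter peaks (8.93%). Among the Suz12 non-promoter peaks of NeuN+ nuclei this was 74 of 300 (24.7%), and among the H3K27me3 non-promoter peaks of NeuN- nuclei 38 of 885 (4.29%). CpG-dense peaks, with a GC content of at least 50% and an observed-to-expected CpG ratio of at least 0.6, were 12 of 252 (4.76%) here, 24 of 56 (42.9%) at promoters and 89 of 300 (29.7%) among the Suz12 non-promoter peaks of NeuN+ nuclei. These are properties of peak sets and not of replicates, and were not tested.

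**Figure D3:**
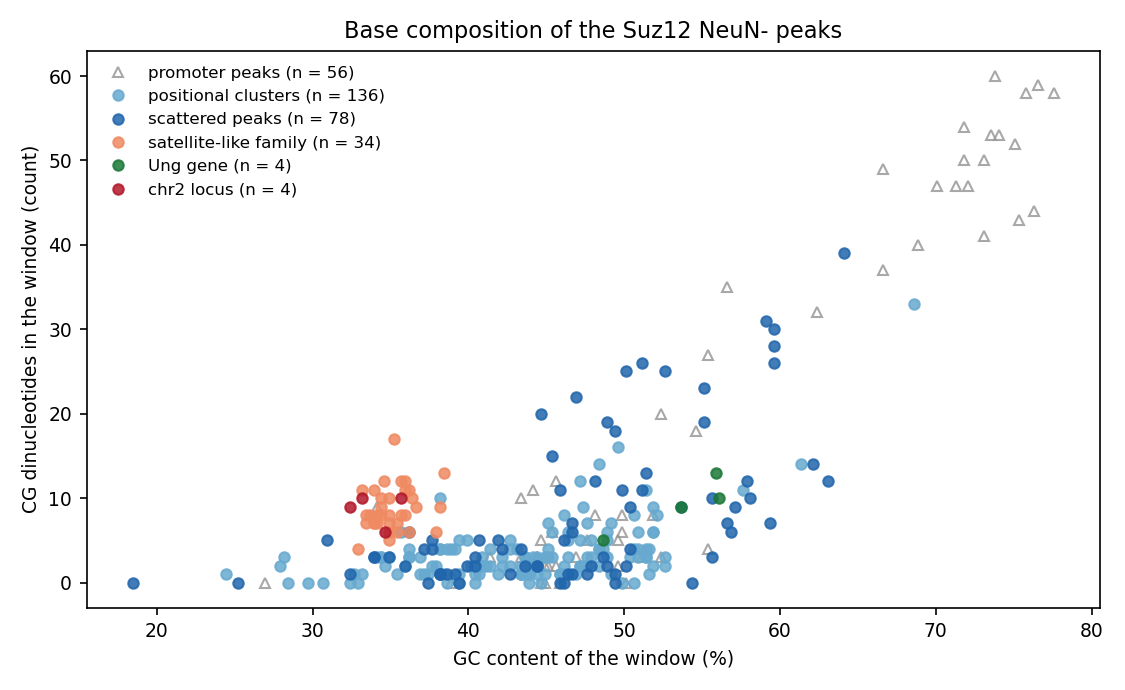
GC content of each Suz12 peak of NeuN- nuclei (percent, horizontal axis) against its number of CG dinucleotides (vertical axis), with 1 point for each peak, open triangles for promoter peaks and colours for the classes of non-promoter peaks. The satellite-like peaks sit between 32.9% and 38.4% GC with 4 to 17 CG pairs, and most peaks with at least 20 CG pairs are promoter peaks (23 of 56, against 12 of 252).

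The 12 CpG-dense non-promoter peaks had mean values between 0.413 and 155, with the highest at Axin2, 68126 bases from the start of that gene. Its values were 313, 58.0 and 132 in WT, 178, 120 and 249 in Mutyh-/-, 161, 126 and 126 in Ogg1-/-, and 160, 77.8 and 156 in DKO. The peaks annotated to Pex2, a peroxisome protein, and Cdk8, a kinase of the Mediator complex, ranged from 48.0 to 242 and from 49.1 to 257. In all 3, WT replicate 1 was the highest library and the genotypes overlapped. A CpG-dense peak annotated to Gm8579 on chromosome 6 (values of 29.7 to 103) was 97% identical over 368 bases to the region of the ribosomal RNA repeat gene Rn45s on chromosome 17, where the table has 2 promoter peaks. Of the 12, 9 overlapped a Suz12 peak of NeuN+ nuclei, 7 an H3K27me3 peak of NeuN- nuclei and 9 an H3K4me3 peak of NeuN- nuclei.

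Few of the non-promoter peaks were annotated to genes for which PRC2 is known. Developmental regulators were the annotated gene of 2 of 252 peaks (Foxa1 and Pitx1), against 7 of 56 promoter peaks, among them Foxd3, Irx3, Neurod2 and Nkx2-4. The Foxa1 peak, 6679 bases from the start of the gene, had 16.8, 4.15 and 13.7 in WT, 1.10, 0 and 7.19 in Mutyh-/-, 0, 2.69 and 2.86 in Ogg1-/-, and 0, 0 and 5.75 in DKO, which is few reads in any library. The Pitx1 peak, whose gene is a regulator of hindlimb and pituitary development, ranged from 0 to 16.5. Signalling ligands and receptors had 0 peaks of either kind. Genes of synapses and adhesion were annotated to 2 peaks, at Chl1 and at Plxnd1, a semaphorin receptor. The lists with most peaks were predicted genes (55), small RNA genes (30, of which nearly all at Mir101c) and olfactory and vomeronasal receptors (26 peaks at Or1f19, Vmn1r2, Vmn1r3, Vmn1r77, Vmn1r238 and Vmn2r117), while promoter peaks had 3, 3 and 0. By GENCODE, 147 of the 252 peaks overlapped a gene and 41 an exon, and 105 lay over no gene.

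The non-promoter peaks were next compared with the other tables by an overlap of at least 1 bp. A Suz12 peak of NeuN+ nuclei was present at 147 of 252 non-promoter peaks (58.3%) and at 27 of 56 promoter peaks (48.2%). H3K27me3, the product of PRC2, had a NeuN- peak at 60 non-promoter (23.8%) and 12 promoter peaks (21.4%). H3K4me3 had a NeuN- peak at 96 (38.1%) and 16 (28.6%). Conversely, 146 of 300 Suz12 non-promoter peaks of NeuN+ nuclei and 58 of 885 H3K27me3 non-promoter peaks of NeuN- nuclei overlapped one of the 252. The overlap followed strength: 24 of the 50 strongest peaks were present in all 5 other tables, against 8 of the other 202, and 4 of the 50 but 75 of the 202 were in none. In NeuN- nuclei, 10 of the 60 non-promoter peaks with H3K27me3 had no H3K4me3 peak, against 5 of the 12 promoter peaks. Among the 50 strongest, 0 had H3K27me3 without H3K4me3.

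The strongest peaks also held like ranks for the other antibodies in NeuN- nuclei. The peak at chr2:98666960-98667360 had the highest mean value in all 6 tables, with 69.1% of the summed mean values in Suz12 NeuN-, 58.2% in H3K27me3 NeuN- and 47.2% in H3K4me3 NeuN-. In NeuN+ nuclei its part was 26.4%, 10.8% and 0.717% for Suz12, H3K27me3 and H3K4me3. The 4933422A05Rik peak was second in the 3 NeuN- tables. Rab10os ranked 5, 5 and 4 for Suz12, H3K27me3 and H3K4me3 in NeuN- nuclei, Pak3 6, 7 and 6, and Gm5458 7, 8 and 7. In NeuN+ nuclei, in the same order, Pak3 ranked 8, 5 and 7, Rab10os 12, 15 and 14, and Gm5458 16, 18 and 1737. The 2 peaks of chromosome Y had a matching peak in the Suz12 tables alone. Input libraries were not used here, so that no background level could be given for these windows.

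**Figure D4:**
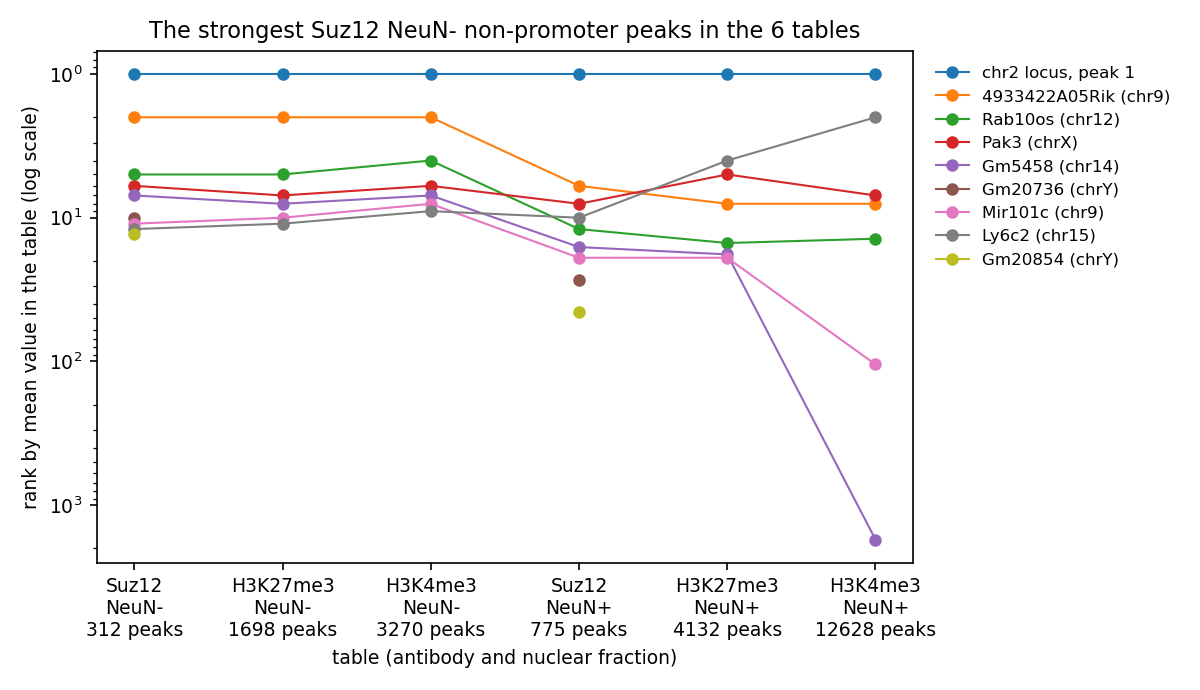
Rank by mean normalised value (log axis, rank 1 at the top) of the strongest Suz12 non-promoter peaks of NeuN- nuclei in each of the 6 tables, with the number of peaks of each table below its name and 1 line for each peak. The chromosome 2 peak is at rank 1 in every table, and the 4933422A05Rik peak at rank 2 in the 3 NeuN- tables.

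Each knockout was then compared with WT, to ask at which of these regions Suz12 changed when a glycosylase was missing. Peaks called as differentially enriched regions (DERs) were those whose limma p, before adjustment, was under 0.05 and whose log2 fold change was over 0.5 in size. The 252 non-promoter peaks had 11 DERs in Mutyh-/- (7 higher and 4 lower), 26 in Ogg1-/- (21 higher and 5 lower) and 15 in DKO (10 higher and 5 lower). Over all 312 peaks, 3.85% were DERs in Mutyh-/- (2.24% higher and 1.6% lower), 11.2% in Ogg1-/- (8.33% and 2.88%) and 6.73% in DKO (4.17% and 2.56%), and the non-promoter peaks with 4.37%, 10.3% and 5.95% were close to these shares. After Benjamini-Hochberg adjustment over the 312 peaks, limma called 0 of the 252 in any knockout, and the smallest adjusted p was 0.261 in Mutyh-/-, 0.145 in Ogg1-/- and 0.355 in DKO. All peaks with an unadjusted p under 0.05 were DERs. With each of the 12 libraries left out in turn, 3 of the 11 DERs of Mutyh-/- (Ccl28, Speer4e and Tmem125), 7 of the 26 of Ogg1-/- and 2 of the 15 of DKO (Or1f19 and Tmem125) stayed past the thresholds every time, and the others were lost at least once. In pooled nuclei, a change in the mix of cell types and a change within cells cannot be told apart. edgeR with the deposited factors or with TMM factors called 2 peaks in DKO, both on chromosome Y and both carried by DKO replicate 2, and DESeq2, which gave no p for these 2 peaks, called 0. Without the 2 libraries of highest promoter share, limma called the Kctd16 peak described below in Mutyh-/- and Ogg1-/-. With single libraries left out, limma called it there without WT replicate 1, and the chrY:34438836 peak as lower in DKO without DKO replicate 2 (-5.32), and otherwise none of the 252 against WT.

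All peaks together were shifted in Ogg1-/-, with a median log2 fold change of 0.52, against 0.14 in Mutyh-/- and 0.26 in DKO. The medians of the 252 were close to these at 0.57 in Ogg1-/-, 0.16 in Mutyh-/- and 0.28 in DKO. The Ogg1-/- libraries held 42821 to 61749 reads in peaks and the WT libraries 15891 to 37013, and the part of this depth in the fold changes was not tested. With libraries scaled to the reads outside the chromosome 2 locus, the median of all peaks in Ogg1-/- was 0.11, and the DERs of the 252 were 20, of which 10 were higher and 10 lower. With TMM factors they were 19, of which 12 were higher, and with edgeR and TMM factors 9 of 19 were higher. The direction of the Ogg1-/- DERs thus depended on the scaling (80.8%, 63.2% and 50.0% higher in limma with the deposited factors, TMM factors and scaling outside the locus). In DKO, 66.7% were higher with the deposited factors and 42.9% with scaling outside the locus.

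**Figure D5:**
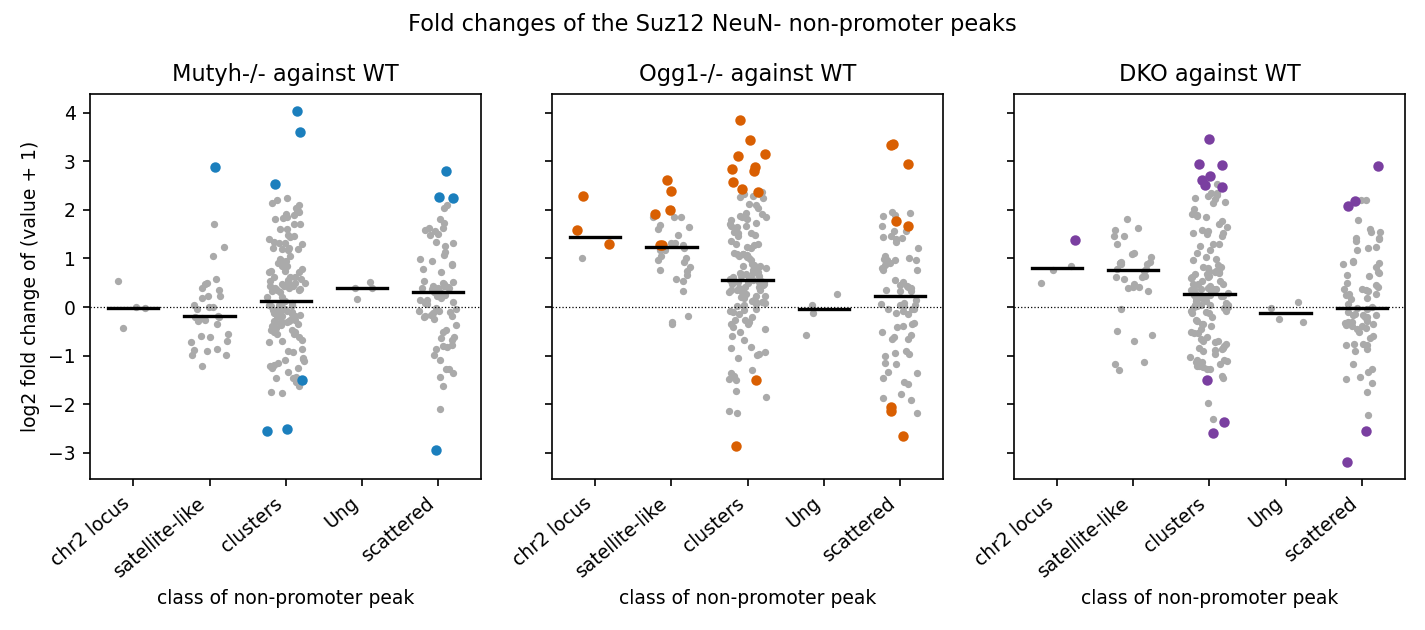
Log2 fold change against WT (limma, log2(value + 1) scale) of the Suz12 non-promoter peaks of NeuN- nuclei, the chromosome 2 locus included, by class of peak and knockout, with 1 point for each peak, DERs in colour, other peaks in grey and a black line at the median of the class. The satellite-like family has its median at 1.24 in Ogg1-/-, 0.76 in DKO and -0.19 in Mutyh-/-.

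In Ogg1-/-, the satellite-like family and the chromosome 2 locus had median log2 fold changes above that of all peaks. By sequence, 2 of the 4 peaks of the locus belong to that family. The strongest peaks outside both had 1.66 (Pak3), 0.99 (Ly6c2), and -1.87 and -0.96 (chromosome Y). Whether the family differed from other peaks of like strength was not tested. Of the 34 family peaks, 31 had a fold change above 0 (211 of all 312 peaks), 14 had all 3 Ogg1-/- libraries above all 3 WT libraries (none below), against 14.4% of all peaks, and the median log2 fold change was 1.24, or 0.72 above that of all peaks. Of the 34, 6 were DERs, all higher, against 8.33% higher DERs over all peaks, and 0 were with TMM factors, with scaling outside the locus, with edgeR and TMM factors or with DESeq2, while the median stayed 0.60 and 0.44 above that of all peaks under the first 2 of these. In DKO the median was 0.76 with 0 DERs and in Mutyh-/- it was -0.19 with 1. Because these peaks share sequence, they are not independent of each other.

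At the locus, the peak at chr2:98662501 had a log2 fold change of 2.28 ± 0.62 (SE, limma adjusted p = 0.0735) in Ogg1-/- and 1.38 ± 0.62 in DKO, a DER in both. WT replicate 1 was the lowest library there, and without it the values were 1.21 and 0.30 and neither was a DER. Without WT replicate 2 or without Mutyh-/- replicate 1, limma called it in Ogg1-/- after adjustment (2.90 and 2.28). The strongest peak of the locus had 1.31 ± 0.53 (limma adjusted p = 0.338) in Ogg1-/-, where it was a DER, 0.84 ± 0.53 in DKO and -0.00 ± 0.53 in Mutyh-/-. It was no DER without WT replicate 1 (1.14), WT replicate 3 (1.24) or Ogg1-/- replicate 3 (1.22), and was called after adjustment without Mutyh-/- replicate 1 (limma adjusted p = 0.00637). With libraries scaled to the reads outside the locus, its value in Ogg1-/- was 0.58 and it was no DER. The 4933422A05Rik and Rab10os peaks had 1.28 ± 0.61 and 1.27 ± 0.63 in Ogg1-/- (limma adjusted p = 0.412 for both). Both were DERs, and neither was a DER with TMM factors, with scaling outside the locus, with edgeR or with DESeq2. Neither was a DER without WT replicate 1, WT replicate 3, DKO replicate 3 or any single Ogg1-/- replicate. The Rab10os peak was also no DER without Mutyh-/- replicate 2.

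Outside the satellites, the peak in an intron of Kctd16, an auxiliary subunit of GABA-B receptors, was a DER in all 3 knockouts. Its normalised values were 54.9, 11.6 and 0 in WT, 70.5, 79.1 and 40.2 in Mutyh-/-, 92.9, 52.8 and 63.0 in Ogg1-/-, and 33.3, 58.3 and 25.3 in DKO. The log2 fold changes were 2.80, 2.95 and 2.08 (SE 0.89), and WT replicate 1 lay within the range of the knockouts. The 3 contrasts share the WT libraries, and the 0 reads of WT replicate 3 enter each of them: without that replicate the log2 fold changes were 1.22, 1.37 and 0.50, and none was a DER. Without WT replicate 1 they were 4.12, 4.27 and 3.41, and limma called the peak in Mutyh-/- (adjusted p = 0.0108) and Ogg1-/- (adjusted p = 0.00615). With scaling outside the locus it was no DER in DKO (1.74). The peak lies 49238 bases from the start of the gene in unique sequence and overlapped a peak in 4 of the 5 other tables.

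The other 2 peaks that were DERs in all 3 knockouts were lower and had few reads. The intergenic peak upstream of Tmem125, a membrane protein gene, had 5.60, 7.46 and 12.4 in WT and 0 in 7 of the 9 knockout libraries, with 0.623 in Mutyh-/- replicate 2 and 9.20 in Ogg1-/- replicate 1. The Zfp982 peak at chr4:147447392-147447792 had 0, 4.97 and 2.75 in WT and 0 in all 9 knockout libraries. At this depth, such values do not separate a low from an absent signal.

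Mutyh-/- and Ogg1-/- had 5 DERs in common, Mutyh-/- and DKO 4, and Ogg1-/- and DKO 4, with the WT libraries shared, and 42 of the 252 peaks were a DER in at least 1 knockout. Beside Ccl28, a chemokine gene, the peak at chr13:119616333-119616733 had 0 in the 3 WT libraries, 28.6, 12.5 and 10.1 in Mutyh-/-, 14.7, 7.17 and 0 in Ogg1-/-, and 29.7, 13.9 and 0 in DKO. It was a DER in Mutyh-/- (adjusted p = 0.261 in limma) and DKO (adjusted p = 0.651), the latter not without DKO replicate 1 (1.95) or replicate 2 (2.47). The peak near Speer4e at chr5:14956158-14956558 was also at 0 in WT and had 11, 12.5 and 10.1 in Mutyh-/- and 9.20, 8.96 and 11.4 in Ogg1-/-. In DKO it had 6.29, 3.70 and 0, and was no DER there.

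Outside the satellite-like family, the DERs of a single knockout had mean values of at most 21.8, apart from the peak near Pak3 and a peak in an intron of Cldn34d, a claudin gene on chromosome X. The latter had 34.7, 71.3 and 16.5 in WT and 115, 115 and 133 in Ogg1-/-, without overlap. Its log2 fold change was 1.77, and it was no DER without WT replicate 3 (1.26) or with any single Ogg1-/- replicate left out. In Ogg1-/-, the peak at chr16:3259197-3259597 near Or1f19 had 0 in WT and 16.6, 19.7 and 7.15 in Ogg1-/-, and the Fbxw4 intron peak had 2.24, 12.4 and 0 against 34.0, 22.4 and 52.9. Fbxw4 encodes an F-box protein of ubiquitin ligases. Another peak of chromosome Y, near Gm20822, had 0, 1.66 and 0 in WT and 28.5, 17 and 4.29 in Ogg1-/-. The Pak3 peak was higher, with a log2 fold change of 1.66 ± 0.66 in Ogg1-/- (limma adjusted p = 0.338), and was no DER without WT replicate 1 (1.17) or Ogg1-/- replicate 3 (1.56), or with scaling outside the locus (0.94).

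In DKO, the Or1f19 peak at chr16:3242964-3243364 had 0, 0 and 1.37 in WT and 10.8, 12.0 and 19.6 in DKO, and the Foxa1 peak was lower (log2 fold change -2.55 ± 1.27, limma adjusted p = 0.651). In Mutyh-/-, 1 peak of the satellite-like family, chr9:3015535-3016312, had 2.24, 1.66 and 0 in WT and 16.5, 10.6 and 15.8 in Mutyh-/-, and was also a DER in Ogg1-/-. The CpG-dense peaks had medians of 0.10, -0.00 and -0.25 in Mutyh-/-, Ogg1-/- and DKO, with 0, 1 and 1 DERs. Of the 26 peaks near olfactory and vomeronasal receptor genes, 0, 3 and 1 were DERs, all higher, and of the 55 near predicted genes 2, 5 and 6. Over all peaks the shares of DERs were 3.85%, 11.2% and 6.73%.

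Whether the DKO differed from the sum of the single knockouts was tested as a non-additive effect. It was past the DER thresholds at 14 of the 252 peaks, all lower than the sum, against 5.45% of all peaks (0.641% higher and 4.81% lower), and limma called 0 after adjustment (smallest adjusted p 0.540, at Kctd16). Without WT replicate 1 limma called the Kctd16 peak (-4.99, adjusted p = 0.0469). Limma also called it without the 2 libraries of highest promoter share (-5.28, adjusted p = 0.0359). Without WT replicate 3 the Kctd16 peak was not past the DER thresholds (-2.08). The 2 strong peaks of chromosome Y were called by edgeR, both higher than the sum. With each library left out in turn, 2 of the 14 stayed past the thresholds throughout. The median over all peaks was -0.44 with the deposited factors, -0.21 with TMM factors, -0.18 with scaling outside the locus and 0.11 with DESeq2. Of the 14, 10 lay in positional clusters and 2 in the satellite-like family.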

How the data were processed

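Suz12 ChIP-seq of NeuN- nuclei was analysed in 12 libraries (4 genotypes, 3 replicates each), with the peaks of the 5 other tables used for overlap and rank. Reads were single-end. The authors used Bowtie2 2.3.5.1 for alignment to GRCm38, called enriched regions with epic2, kept those present in several replicates, counted reads with DiffBind 3.10.1 and annotated peaks with ChIPseeker 1.36. Handling of duplicates, multi-mapping reads, blacklisted regions and input is not given in the sources used here. The deposited values are signal, the reads of a peak over a size factor of its library. All of them (100%) came out as whole multiples of a step found for each library, and this gave back the reads behind the deposited values.

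Since the values were not raw counts, the planned edgeR test was replaced by the test named for that case, limma 3.58.1 with a mean-variance trend. It was run on log2(value + 1) over all 312 peaks without a filter, and the model held genotype alone for the 12 libraries. This scale understates changes of low values. Prior degrees of freedom were infinite, so that a peak was tested with the trend's spread and not with its own. Adjusted p is the Benjamini-Hochberg value over the 312 peaks of a contrast. The study's definition of a DER was used (unadjusted p under 0.05, absolute log2 fold change over 0.5). The non-additive effect is DKO minus Ogg1-/- minus Mutyh-/- plus WT. Scripts were tested on simulated data, in which changes were placed in the stronger peaks alone, so that changes at peaks with few reads were not covered. Alternatives included edgeR 4.0.16 and DESeq2 1.42.0 on the recovered reads, other scalings and leaving out each library. Leaving out the 2 libraries of highest promoter share was added after the values had been seen.

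Repeat masking, GC content, CG pairs and copies of 31-base words were read from GRCm38, and peaks were aligned to each other with BLAST+ 2.17.0. Gene overlap is from GENCODE vM21. The non-promoter peaks and the gene lists were chosen with earlier results of these data known. Peaks named are the 4 of the chromosome 2 locus, the 8 others with the highest mean value, up to 12 of listed genes and, for each knockout, up to 8 DERs in order of p. Other peaks (Ung, Cldn34d, Axin2, Pex2, Cdk8, Foxa1, Pitx1 and Plxnd1 among them) were named after their values had been seen. Counting precision is limited by depth, 11887 to 66148 reads in peaks per library. The full neuronal marker list is not reported here.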

Additional observations from a re-analysis of the deposited data

How the results depend on the processing

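Under other settings, the counts of DERs among the 252 peaks changed as follows. Without the lowest 25% of peaks by mean value there were 7 in Mutyh-/- and 9 in DKO. With repeat peaks left uncounted there were 6 in Mutyh-/-, 14 in Ogg1-/-, 9 in DKO and 9 for the non-additive effect. The repeat peaks were left out of the count and not of the fit, so that the calls of the other peaks could not change. With DESeq2 there were 15 in Ogg1-/- and 7 for the non-additive effect. Leaving out each library in turn gave 8 to 13 DERs in Mutyh-/-, 18 to 28 in Ogg1-/-, 11 to 20 in DKO and 5 to 16 for the non-additive effect (6 without WT replicate 3, 5 without Mutyh-/- replicate 1 and 8 without Ogg1-/- replicate 1). The non-additive DERs were all lower in limma, whereas 3 of 11 were higher in edgeR with the deposited factors.

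The median log2 fold change of the 252 peaks in Mutyh-/- turned to -0.0016 with edgeR and TMM factors and to -0.068 with DESeq2, and ranged from -0.22 to 0.38 over single libraries left out. In DKO it was -0.071 with scaling outside the chromosome 2 locus and 0.02 to 0.44 over libraries left out, and in Ogg1-/- 0.38 to 0.72. The non-promoter share of reads outside the locus differed from WT by -8.37 to 3.0 percentage points in Mutyh-/-, 3.86 to 15.2 in Ogg1-/- and 1.79 to 13.2 in DKO, and the share of the locus by -7.18 to 2.39, 2.68 to 12.1 and -1.26 to 8.15. Within 1 kb, 98 of the 252 peaks had an H3K27me3 peak of NeuN- nuclei. On chromosome Y in DKO, the Gm20736 peak turned from -1.48 to 3.51 and 3.43 in edgeR with the deposited and TMM factors, and the Gm20854 peak from 0.46 to -2.99 without DKO replicate 2 (2.62 without DKO replicate 1). The cause was not tested.

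Same-numbered libraries did not deviate together (correlations from -0.06 to 0.05), so the numbers were not taken as pairs. With a replicate block there were 11, 31 and 20 DERs in Mutyh-/-, Ogg1-/- and DKO, 15 for the non-additive effect, and limma called the Kctd16 peak and, at the locus, the chr2:98662501 peak past adjustment in Ogg1-/-.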
